A study of Homo sapiens with 6 samples.

Results

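The 10 genes described here encode RNA-binding proteins that are found mainly in neurons: ELAVL2, ELAVL3 and ELAVL4 of the ELAV-like (Hu) family, NOVA1 and NOVA2, CELF3, CELF4 and CELF5, and RBFOX1 and RBFOX3. They were chosen by name, with earlier results of these data known. All 10 were represented among the 18417 genes that had a probe set naming exactly 1 gene. The data are 6 Affymetrix whole-transcript arrays of total RNA from A204 cells, an established line of human rhabdoid tumour, which typically has lost SMARCB1, a core subunit of SWI/SNF chromatin remodellers. SAHA (vorinostat), an inhibitor of histone deacetylases, was given for 12 h to the cells of 3 arrays. The cells of the other 3 arrays were controls, which received the solvent DMSO per the treatment protocol, although a second label gives no treatment for them. The unit of the dose is incomplete in the labels, so the concentration is not stated here. Both groups are 1 cell line. Separate cultures are not mentioned in the labels, so the spread behind each p-value is that between arrays and may be technical.

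Neurons use RNA-binding proteins to set which exons are joined and how long an mRNA lasts. ELAV-like proteins bind AU-rich stretches of mRNAs, stabilise them and promote their translation, and ELAVL1 (HuR), the broadly expressed member, does so in most tissues. NOVA proteins bind clusters of short motifs built around CA, CELF proteins bind GU-rich stretches and RBFOX proteins bind the motif GCAUG, each shifting the choice of nearby exons according to where they bind. RBFOX3 is the antigen NeuN, a widely used marker of mature neurons, and the Hu and NOVA proteins were first found as targets of antibodies in paraneoplastic neurological disease. In non-neuronal cells many neuronal genes are held silent by the repressor REST, which recruits histone deacetylases, and neuronal exons are held out of mRNAs by PTBP1.

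Values are the log2 of the deposited RMA signal, so a difference of 1 is 2-fold, and every change is SAHA minus control. A gene was called when its adjusted p in limma's moderated linear model, over all genes, was under 0.05. The arrays of a group correlated at 0.9965 to 0.998 across all probe sets and arrays of different groups at 0.9728 to 0.9738. Their median signal lay between 142 and 149 on the linear scale. Keratin 8, keratin 18 and vimentin, which rhabdoid tumours produce together, gave control levels of 13.55 ± 0.01, 13.54 ± 0.02 and 12.81 ± 0.03 (SD, n = 3). SMARCB1 gave 7.74 ± 0.04 in control and 7.22 ± 0.05 in SAHA (SD, n = 3), a fall of 0.51 (adjusted p = 2.28e-05). Its control level is above the control means of ELAVL3, CELF3, CELF4, CELF5 and RBFOX3. No call against background was made for any gene, so a level alone does not show that a transcript was present.

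Of the 10 genes, 4 rose after SAHA (ELAVL3, NOVA2, CELF5 and CELF3), NOVA1 fell and 5 were not called. Over all genes tested, 31.1% were called higher, 28.9% lower and 60% in either direction, so the count of 5 of 10 is near the background. ELAVL3 and NOVA2 changed at least 2-fold, as did 11.3% of all genes. The SAHA values lay wholly above or below the control values for 5 of the 10 genes, beside 65.4% of all genes. The median change of the 10 genes was 0.12, and that of all genes was -0.0027. Since the cells were measured in bulk, a change in how many cells express a gene and a change in the RNA per cell cannot be told apart.

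**Figure D1:**
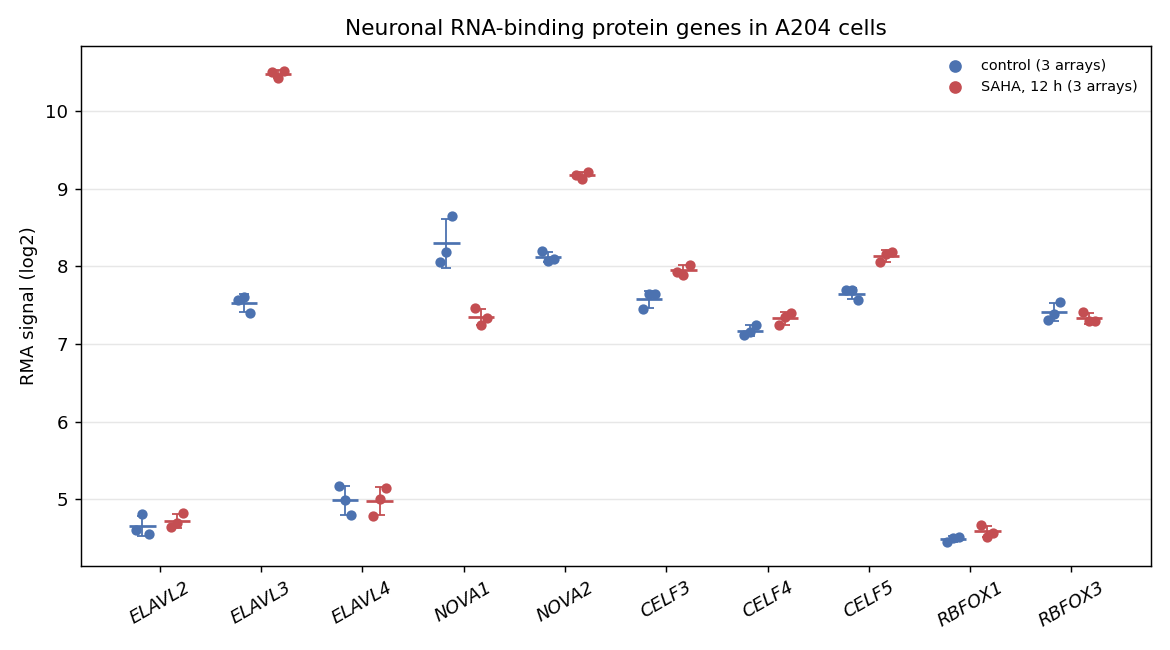
RMA signal (log2) of the 10 neuronal RNA-binding protein genes in each of 3 control and 3 SAHA arrays, with points for arrays, short lines for group means and bars for the SD. ELAVL3 rises from about 7.52 to 10.48, NOVA2 and NOVA1 move in opposite directions, and ELAVL2, ELAVL4 and RBFOX1 stay near the lower end of the axis in both groups.

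ELAVL3, which encodes HuC, had by far the largest change of the 10. Its levels (probe set 8034263) were 7.57, 7.61 and 7.40 in the control arrays and 10.50, 10.42 and 10.52 in the SAHA arrays. The 3 SAHA values were high and close together, and the groups did not overlap. The rise of 2.95 (95% interval 2.81 to 3.10, adjusted p = 1.56e-08) is 7.75-fold and placed ELAVL3 49th from the top among all 18417 genes. Its change ran from 2.85 to 2.996 over all alternative settings and left-out arrays.

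The other Hu genes of neurons gave dim signals with no call. ELAVL2, which encodes HuB, lay at 4.60, 4.81 and 4.56 in control and 4.64, 4.70 and 4.82 in SAHA. ELAVL4, which encodes HuD, lay at 5.17, 4.99 and 4.80 in control and 4.79, 4.997 and 5.15 in SAHA. For both genes the groups overlapped throughout. The interval of the change was -0.11 to 0.25 for ELAVL2 (adjusted p = 0.495) and -0.27 to 0.26 for ELAVL4 (adjusted p = 0.96), and the sign for ELAVL4 turned when control array 1 (0.08) or SAHA array 1 (0.09) was left out. Together with RBFOX1 these were the 3 members with values between 4.45 and 5.17, near the bottom of the signals of all genes, where whether the transcript was present at all was not settled.

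ELAVL1, the broadly expressed Hu gene, was bright and did not differ by the test. Its levels were 10.71, 10.67 and 10.75 in control and 10.76, 10.74 and 10.64 in SAHA, a change with an interval of -0.12 to 0.12 (adjusted p = 0.982). Within each array the ELAVL3 signal was set against that of ELAVL1, a log ratio whose changes can be read but whose absolute size cannot, because probe sets differ in brightness. The log ratio lay between -3.35 and -3.06 in control and between -0.32 and -0.12 in SAHA, a shift of 2.95 (exact permutation test, two-sided, p = 0.1, the smallest that 3 against 3 allows, and 0.15 adjusted over 9 pairs). The corresponding shifts for ELAVL2 (0.07, exact p = 0.6) and ELAVL4 (-0.01, exact p = 0.9) lay within overlapping groups.

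The NOVA genes moved in opposite directions. NOVA2, the NOVA gene prominent in the cortex, lay at 8.20, 8.07 and 8.09 in control and 9.17, 9.13 and 9.21 in SAHA. It rose by 1.05 (interval 0.93 to 1.17, adjusted p = 7.71e-07), or 2.07-fold, and the groups did not overlap. NOVA1, known from hindbrain and spinal cord neurons, lay at 8.05, 8.19 and 8.65 in control and 7.46, 7.25 and 7.33 in SAHA. All SAHA values were lower than all control values, and control array 3 stood above the other control arrays. NOVA1 fell by 0.95 (interval -1.29 to -0.62, adjusted p = 0.00054), and by 0.77 without control array 3. The NOVA2 over NOVA1 log ratio went from between -0.56 and 0.16 in control to between 1.71 and 1.88 in SAHA, a shift of 1.999 (exact permutation p = 0.1, adjusted 0.15).

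Of the neuronal CELF genes, CELF5 and CELF3 rose by smaller amounts and CELF4 was not called. CELF5 lay at 7.69, 7.69 and 7.57 in control and 8.05, 8.16 and 8.19 in SAHA, a rise of 0.48 (interval 0.35 to 0.61, adjusted p = 0.000133) with no overlap. CELF3 lay at 7.45, 7.64 and 7.64 in control and 7.93, 7.89 and 8.02 in SAHA, a rise of 0.37 (interval 0.22 to 0.53, adjusted p = 0.00131) with no overlap. CELF4, linked to excitability and seizures in mice, lay at 7.12, 7.15 and 7.25 in control and 7.24, 7.35 and 7.40 in SAHA. The lowest SAHA value of CELF4 was under the highest control value. Its change of 0.15 (interval 0.02 to 0.29) missed the threshold at adjusted p = 0.0553, with adjusted p from 0.027 to 0.497 over the alternatives. CELF4 was called without control array 3 (0.19, adjusted p = 0.0304) and without SAHA array 1 (0.20, adjusted p = 0.027).

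Among the remaining family genes, CELF1, a broadly expressed regulator of splicing and mRNA decay, fell. Its levels were 11.16, 11.20 and 11.28 in control and 10.86, 10.99 and 10.97 in SAHA, a fall of 0.27 (interval -0.40 to -0.15, adjusted p = 0.00254). CELF2 was at 5.37 ± 0.10 in control and 5.37 ± 0.08 in SAHA, and CELF6 was at 6.85 ± 0.10 and 6.90 ± 0.04 (SD, n = 3), neither of them called. Relative to CELF1 in the same array, CELF3, CELF4 and CELF5 shifted by 0.65, 0.43 and 0.75, each with no overlap between the groups (exact permutation p = 0.1 each, adjusted 0.15). The fall of CELF1 itself is part of each shift, and CELF4 alone changed by 0.15 with overlapping groups. Of the 9 family pairs compared, 6 did not overlap, beside 65.4% of single genes. These shares are not like for like, because several pairs share a gene and no share over gene pairs was computed.

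The RBFOX genes were not called. RBFOX1, a splicing regulator of neurons and muscle, lay at 4.45, 4.50 and 4.52 in control and 4.67, 4.52 and 4.57 in SAHA, and its change had an interval of -0.03 to 0.22 (adjusted p = 0.154). RBFOX3 (probe set 8018993) lay at 7.31, 7.38 and 7.54 in control and 7.41, 7.29 and 7.29 in SAHA, an overlapping difference of -0.08 (interval -0.24 to 0.08, adjusted p = 0.349). It passed the threshold after a further quantile normalization (-0.18, adjusted p = 0.0477). RBFOX2, the broadly expressed member, was at 10.57 ± 0.03 and 10.55 ± 0.01 (SD, n = 3), with an interval of -0.11 to 0.08 and a sign that turned under other scalings. Relative to RBFOX2 in the same array, the dim RBFOX1 shifted by 0.11 with no overlap (exact permutation p = 0.1, adjusted 0.15). RBFOX3 shifted by -0.07 with overlap (exact permutation p = 0.5, adjusted 0.64).

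RBFOX3 was the member with several probe sets, 3 in all. The second (8019005) lay at 7.17, 7.11 and 7.07 in control and 7.001, 6.93 and 6.71 in SAHA, which did not overlap. Its difference of -0.23 had adjusted p = 0.059 over all 33252 probe sets. The last (8019751) lay at 5.18, 5.25 and 5.25 in control and 5.09, 5.33 and 5.18 in SAHA, with a difference of -0.02 (adjusted p = 0.829). None of the RBFOX3 probe sets was higher on average after SAHA.

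**Figure D2:**
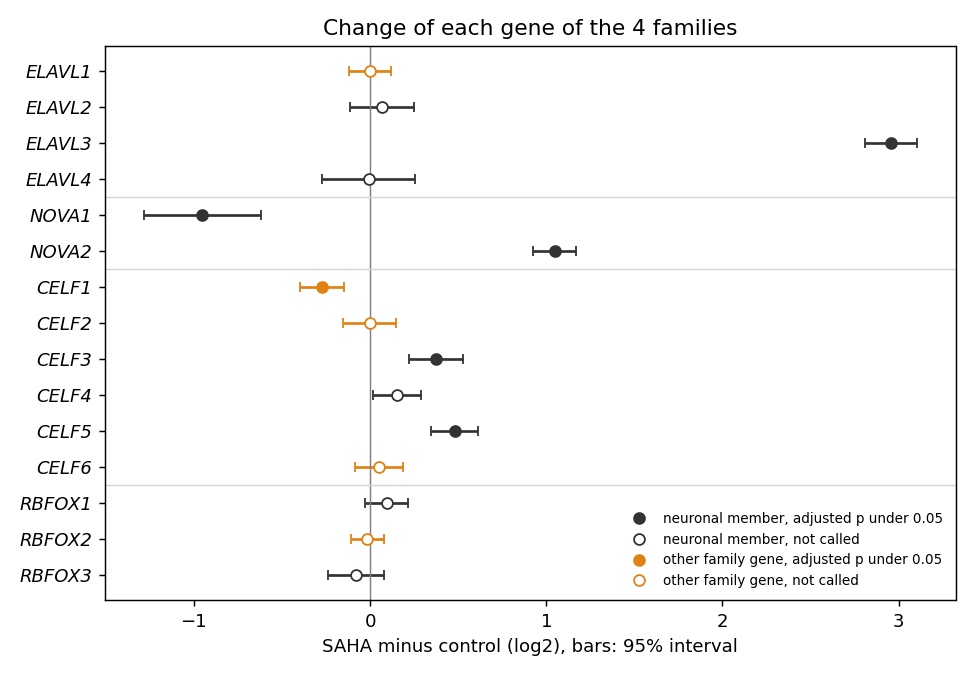
Change (SAHA minus control, log2) of the 10 neuronal genes and 5 other genes of the same 4 families, with 95% intervals from limma over 3 arrays per group. Filled points passed adjusted p under 0.05: ELAVL3 stands apart at 2.95, NOVA1 and NOVA2 lie on either side of 0, and ELAVL1 and RBFOX2 lie at it.

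Promoter sequences are shown for NOVA2 and NOVA1, which moved in opposite directions, and for CELF5, which rose. They are the 250 bases before an annotated start in RefSeq (GRCh38.p14), and capitals mark exact matches, on either strand, to GGGCGG (the GC box), CCAAT (bound by the factor NF-Y), TATAAA (the TATA box), or AGCACC and GGACAG, letters of the element that REST binds. The NOVA2 window is chr19:45973866-45974115 on the minus strand, the NOVA1 window, the most upstream of 3, is chr14:26598034-26598283 on the minus strand, and the CELF5 window is chr19:3224411-3224660 on the plus strand.
NOVA2: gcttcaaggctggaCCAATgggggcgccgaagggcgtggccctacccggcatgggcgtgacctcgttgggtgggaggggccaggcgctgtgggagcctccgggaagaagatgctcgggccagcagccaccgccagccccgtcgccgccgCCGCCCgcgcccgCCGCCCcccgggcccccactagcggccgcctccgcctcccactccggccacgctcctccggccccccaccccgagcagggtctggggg
NOVA1: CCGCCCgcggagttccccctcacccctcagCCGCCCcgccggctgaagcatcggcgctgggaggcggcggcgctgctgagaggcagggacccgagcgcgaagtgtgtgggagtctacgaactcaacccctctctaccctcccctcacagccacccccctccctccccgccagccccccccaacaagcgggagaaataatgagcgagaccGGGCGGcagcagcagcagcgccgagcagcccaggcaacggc
CELF5: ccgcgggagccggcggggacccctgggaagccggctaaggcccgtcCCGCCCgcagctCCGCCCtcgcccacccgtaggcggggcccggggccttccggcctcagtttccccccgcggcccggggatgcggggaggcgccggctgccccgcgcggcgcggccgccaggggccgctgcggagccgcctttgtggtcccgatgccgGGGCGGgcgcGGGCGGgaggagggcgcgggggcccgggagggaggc

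All 3 windows are rich in CpG and hold the GC box. They contain 78.0%, 71.6% and 84.0% G and C for NOVA2, NOVA1 and CELF5, beside a median of 58.0% over 35116 windows of that length. Observed over expected CpG was 0.715, 0.74 and 0.867, beside a median of 0.558. GGGCGG was matched 2 times in the NOVA2 window, 3 times in the NOVA1 window and 4 times in the CELF5 window. The NOVA1 windows not printed held 35.6% and 44.8% G and C, with observed over expected CpG of 0.253 and 0.082. Neither held GGGCGG, and which start the cells use was not tested. The promoter table held 37 windows for 9 of the 10 genes, all but ELAVL3, and windows of a gene can overlap. GGGCGG was in 32.4% of these windows (42.6% of all windows), CCAAT in 32.4% (32.0%), TATAAA in 16.2% (10.7%), AGCACC in 24.3% (12.99%) and GGACAG in 29.7% (17.2%). These shares count windows, so genes with many windows weigh more. AGCACC and GGACAG were in none of the windows printed. AGCACC was in windows of 5 members (CELF4, ELAVL2, ELAVL4, RBFOX1 and RBFOX3). GGACAG was in windows of 4 (ELAVL2, ELAVL4, RBFOX1 and RBFOX3). None of these members was called, and no window of a called member held either motif. Most of the 37 windows belong to members that were not called, and the called ELAVL3 had no window. The split therefore cannot link the motifs to the calls. These matches are descriptions of the letters, not evidence of binding.

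Genes lying next to the 10 members were called in both directions. The nearest measured genes on each side, by their order in the RefSeq gene table, were 20 genes, of which 9 were higher, 8 lower and 3 not called, beside 31.1% and 28.9% of all genes. ELAVL3 lies between PRKCSH, which encodes the glucosidase II beta subunit and rose by 0.42 (adjusted p = 3.93e-05), and the zinc-finger gene ZNF653, which fell by 0.47 (adjusted p = 7.75e-05). NOVA2 lies between the germ cell gene NANOS2, which fell by 0.16 (adjusted p = 0.024), and CCDC61, which rose by 0.20 (adjusted p = 0.0103). Beside ELAVL3, NOVA2 and NOVA1 no neighbour changed as much as the member, whereas each of the other 7 members had at least 1 neighbour with a larger change in size. The largest such change was at NFIC beside CELF5, a transcription factor gene named after its value was seen, which fell by 1.53 (adjusted p = 1.37e-07).

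Genes whose values were most like those of ELAVL3 were sought over all genes. Likeness was the root mean square difference over the 6 arrays after each gene was centred on its own mean. RUNDC3A, a gene expressed in neurons, was nearest at 0.04 on the log2 scale, then NID1, which encodes the basement membrane protein nidogen (0.05), the granzyme B inhibitor gene SERPINB9 (0.06), MLLT3, a subunit of a transcription elongation complex (0.07), and the TNF family ligand gene TNFSF9 (0.07). Their changes lay between 2.89 and 2.95, a closeness that follows from how they were picked.

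Of 13 other regulators of neuronal exons measured, 3 rose, 6 fell and 4 were not called, with a median change of -0.09. The share called, 69.2%, is near the 60% of all genes. PTBP2, the PTB protein of developing neurons, lay at 9.33, 9.36 and 9.71 in control and 7.67, 7.53 and 7.61 in SAHA, a fall of 1.86 (adjusted p = 1.1e-06). PTBP1, the repressor of neuronal exons in other cells, lay at 12.75, 12.77 and 12.80 in control and 12.13, 12.10 and 12.14 in SAHA, a fall of 0.65 (adjusted p = 3.09e-06). Neither PTB gene had overlapping groups, and PTBP2 fell by 1.74 to 1.93 and PTBP1 by 0.64 to 0.68 over all alternatives.

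The muscleblind genes, whose proteins drive adult splicing patterns, did not move together. MBNL2, prominent in brain, lay at 8.05, 8.06 and 7.90 in control and 9.84, 9.73 and 9.89 in SAHA, a rise of 1.82 (adjusted p = 1.27e-07). MBNL1 rose by 0.32, while MBNL3 fell by 1.20, from 7.54 ± 0.12 to 6.35 ± 0.14 (SD, n = 3). KHDRBS2, which encodes the neuronal STAR protein SLM1, rose by 0.26, and QKI, a STAR protein of glia and muscle, fell by 0.66. SRRM4, the activator of neuronal microexons, named after its value was seen, was at 6.61 ± 0.03 in control and 6.52 ± 0.04 in SAHA (adjusted p = 0.104).

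RNA-binding proteins of translation, transport and decay that act in neurons were called in 12 of 13 cases, 5 higher and 7 lower, with a median change of -0.27. That is 92.3% of the list, beside 60% of all genes. Most of the list was bright, and brighter genes were called more often. When only genes at or above the median level were tested, 11 of the list remained and all were called. Of the 9209 genes tested there, 3660 were called higher and 3993 lower. CPEB4, a regulator of poly(A) tail length, rose by 1.05 (8.25 ± 0.09 to 9.30 ± 0.06, SD, n = 3), CPEB3 rose by 0.50 and the FMR1 relative FXR2 rose by 0.54. FMR1, the gene silenced in fragile X syndrome, fell by 0.91 (10.15 ± 0.03 to 9.24 ± 0.06), SYNCRIP, a protein of transport granules, fell by 0.74 and CPEB2 fell by 0.71. In the CPEB family and the FMR1 family there were therefore rises and falls side by side.

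**Figure D3:**
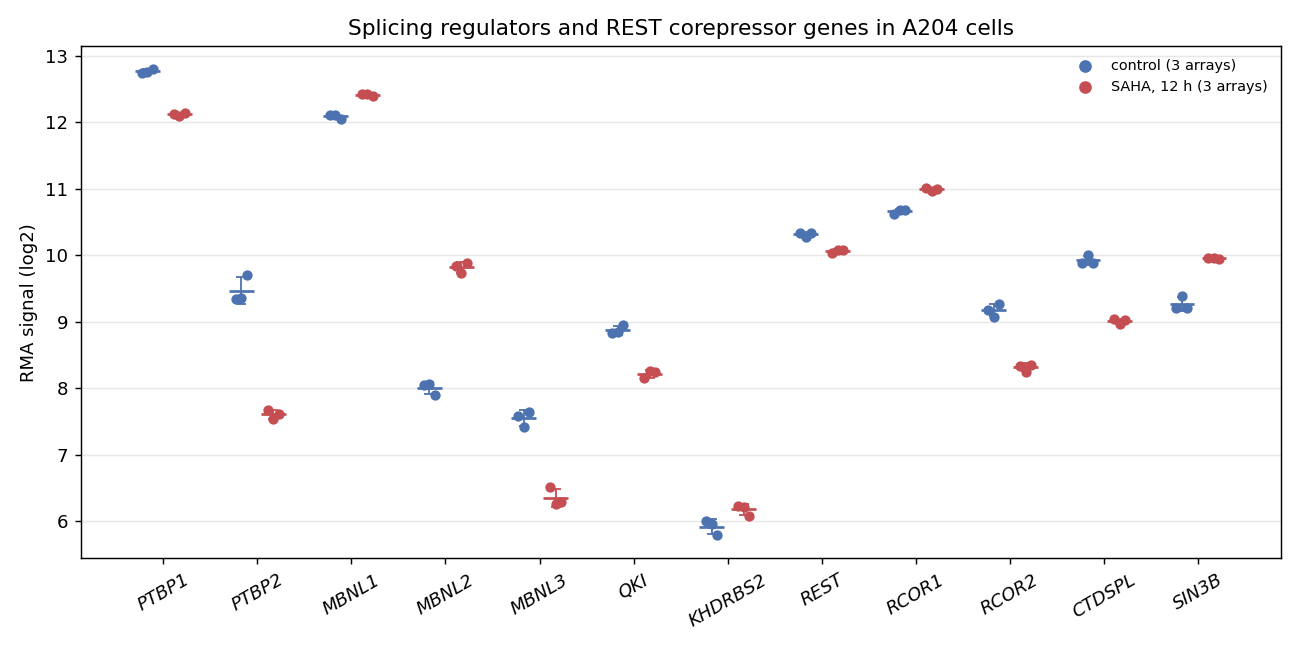
RMA signal (log2) of 7 splicing regulators and of REST with 4 corepressor or cofactor genes in each of 3 control and 3 SAHA arrays, with points for arrays, lines for means and bars for the SD. PTBP2 and MBNL3 are lower and MBNL2 is higher in all SAHA arrays, while REST differs by 0.25.

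REST, the repressor of neuronal genes, was slightly lower after SAHA. Its levels were 10.33, 10.27 and 10.34 in control and 10.03, 10.08 and 10.08 in SAHA, a fall of 0.25 (interval -0.35 to -0.15, adjusted p = 0.00115). Of 14 genes of REST and its corepressors, 10 fell, 3 rose and 1 was not called, with a median change of -0.36 and none changed 2-fold. The falls are 71.4% of the list, beside 28.9% of all genes. All 14 lay at or above the median level, and brighter genes were called more often. When only genes at or above that level were tested, 10 of the 14 and 3993 of all 9209 were called lower. CTDSPL and CTDSP1, small phosphatases that act with REST, fell by 0.92 and 0.81, and the corepressor RCOR2 fell by 0.86. SIN3B, a scaffold of deacetylase complexes, rose by 0.68, the deacetylase gene HDAC1 by 0.39 and RCOR1, the main CoREST gene, by 0.33.

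Neuronal genes known as REST targets were mostly higher: 12 of 16 rose, 1 fell and 3 were not called, with a median change of 0.69 and 6 changed at least 2-fold. The rises are 75% of the list, beside 31.1% of all genes. This list, like the others, was chosen with earlier results of these data known, so its share is a description and not an independent test. SYP, the synaptic vesicle protein synaptophysin, lay at 7.13, 7.23 and 7.34 in control and 9.36, 9.35 and 9.39 in SAHA, a rise of 2.13. L1CAM, an axonal adhesion molecule, rose by 1.96 and synapsin I, SYN1, by 1.63. SLC12A5, the chloride transporter KCC2, fell by 0.90, from 6.67 ± 0.11 to 5.77 ± 0.29 (SD, n = 3).

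Of 11 markers of neurons measured, 7 rose, none fell and 4 were not called, with a median change of 1.05. The share called in either direction, 63.6%, is near the 60% of all genes, and 31.1% of all genes rose. Their summed signal was 12.31 to 12.55 (log2) in control and 13.76 to 13.79 in SAHA, and its part in the result was not tested. MAP2, a dendritic cytoskeletal protein, lay at 5.83, 5.78 and 5.37 in control and 8.15, 8.03 and 8.06 in SAHA, a rise of 2.42. The neurofilament genes NEFM and INA each rose by 1.83. NEFL, another neurofilament gene of the list, named after its value was seen, changed by 0.13 and was not called (adjusted p = 0.102). DCX and GAP43, markers of young neurons named after their values were seen, were at 5.52 ± 0.08 and 5.85 ± 0.04 in control and 5.44 ± 0.04 and 5.82 ± 0.06 in SAHA, with adjusted p = 0.292 and 0.578. None of 4 astrocyte markers was called, with a summed signal of 8.25 to 8.33 in control and 8.27 to 8.39 in SAHA. The 3 oligodendrocyte markers measured were not called either, at 7.49 to 7.57 and 7.46 to 7.57. RMA gives no values of 0, so no marker was listed at 0.

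The marker lists of endothelial, blood and epithelial cells also held called genes. Of 4 endothelial markers 1 rose, 2 fell and 1 was not called, and their summed signal went from between 12.73 and 12.79 in control to between 10.63 and 10.70 in SAHA. CDH5, which encodes VE-cadherin, fell by 2.19, from 12.73 to 10.54. Linear signals were added, so CDH5, by far the brightest of the list, makes up most of this sum. The VEGF receptor gene KDR rose by 0.64, and PECAM1 lay at 5.04 ± 0.10 in control and 5.17 ± 0.05 in SAHA (SD, n = 3). Of 4 blood cell markers 1 rose, 1 fell and 2 were not called, and their summed signal went from between 10.01 and 10.27 to between 10.80 and 10.84. CD68, a lysosomal protein of macrophages, rose by 1.55, CSF1R, the receptor of a macrophage growth factor, fell by 1.63, and the pan-leukocyte gene PTPRC lay at 4.05 ± 0.07 and 4.08 ± 0.12 (SD, n = 3). Of 4 epithelial markers 1 rose, 2 fell and 1 was not called, with a summed signal of 14.58 to 14.60 in control and 14.44 to 14.48 in SAHA. The genes of these lists named here were chosen after their values were seen, and the part of these shifts in the changes of the 10 members was not tested.

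Of 11 measured genes whose mRNAs are known to be bound by neuronal Hu proteins, 6 rose, 3 fell and 2 were not called, with a median change of 0.23. The share called, 81.8%, stands beside 60% of all genes, and brighter genes were called more often. When only genes at or above the median level were tested, 5 of the 6 that remained were called. Of the 9209 genes tested there, 3660 were called higher and 3993 lower. MAPT, which encodes tau, rose by 2.06 (7.08, 7.06 and 6.92 in control, and 9.10, 9.04 and 9.11 in SAHA), the immediate early gene FOS by 1.81 and CDKN1A, the gene of the cell-cycle inhibitor p21, by 1.30. MYCN, a proto-oncogene of neural tumours, fell by 1.43 (9.28, 9.19 and 8.89 in control, and 7.56, 7.79 and 7.71 in SAHA), and VEGFA, the angiogenic growth factor gene, fell by 1.14. NOVA1, itself known as a target of HuD, is the remaining gene of this list that fell.

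Of 8 measured genes with exons known as regulated by NOVA, 3 rose, 2 fell and 3 were not called, with a median change of -0.0014. The share called, 62.5%, is near the 60% of all genes. The calcium channel gene CACNA1B rose by 1.02, agrin, AGRN, by 0.74 and the netrin receptor gene NEO1 by 0.29. DAB1, the adaptor of reelin signalling, lay at 8.27, 8.27 and 8.54 in control and 6.88, 6.92 and 6.83 in SAHA, a fall of 1.48, and GPHN, the gephyrin gene, fell by 0.22. A probe set gives 1 value per gene, so no value here shows whether an exon was included.

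**Figure D4:**
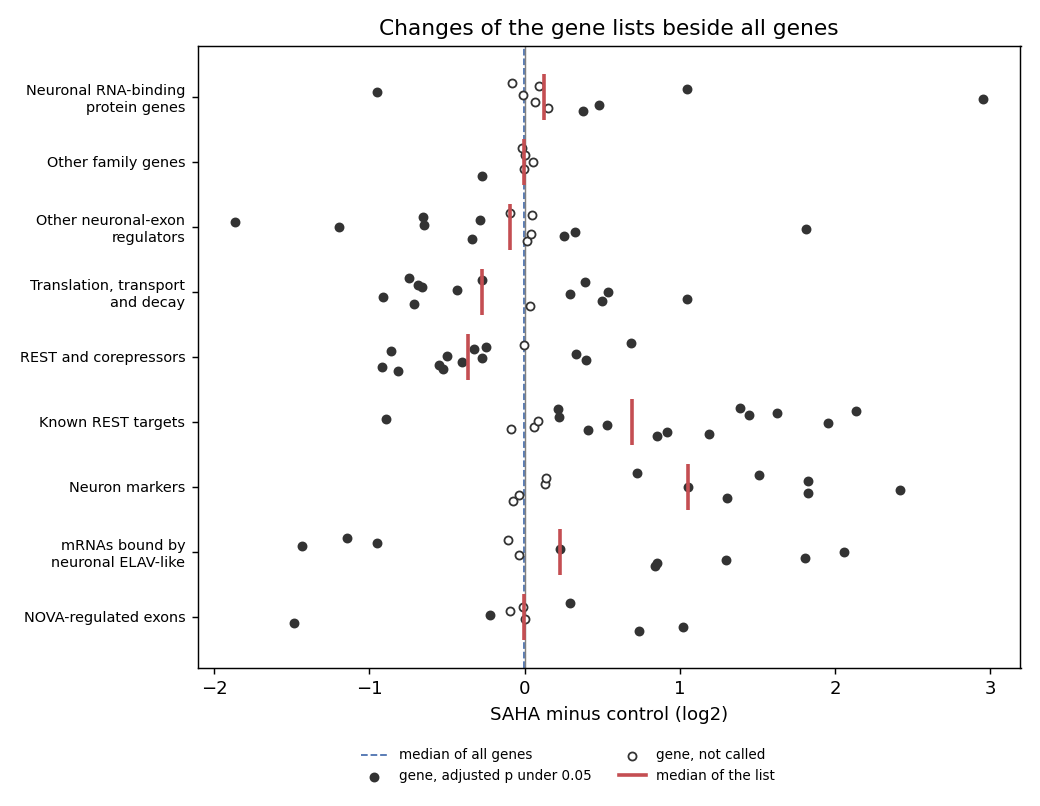
Change (SAHA minus control, log2) of every measured gene of 9 lists, with filled points for adjusted p under 0.05, red lines for list medians, a dashed line for the median of all genes (-0.0027) and a grey line at 0. List medians are 0.69 for the known REST targets, 1.05 for neuron markers, -0.36 for REST and its corepressors and 0.12 for the 10 RNA-binding protein genes, and every list holds genes on both sides of 0.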

How the data were processed

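The 6 A204 arrays, 3 per group by the sample titles, were read from the deposited value table. Per the submitters' processing notes the authors used RMA, which corrects background, quantile normalizes and summarises probes. The deposited intensity values run from 6.56 to 20338 on a linear scale. Its software and version are not given in the sources used. RMA forces near-equal distributions on the arrays, so a global RNA change would not be seen, and changes of dim genes may be compressed. The number of arrays limits the precision, and no depth applies.

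Log2 was taken, with no dim gene left out. Of 33252 probe sets, 19460 named 1 gene, 1754 several and 12038 none in GEO's platform annotation. Symbols were updated through Entrez identifiers to RefSeq (GRCh38.p14), which matched 19429, and for each of 18417 genes the probe set of highest mean level was taken. The fit was limma 3.58.1 in R 4.3.3 (lmFit, eBayes, no covariates), two-sided, with Benjamini-Hochberg adjustment, and it was tested on simulated data. Exact permutation tests used scipy 1.17.1. Members, lists and the rule for named genes were chosen with earlier results of these data known. The rule names all family genes, REST, PTBP1 and PTBP2, the 3 largest called rises and falls of each list, neighbours of members changed 2-fold and the 5 genes most like ELAVL3. Some genes of the lists were not analysed here. Alternatives were other scalings, filters on dim genes, handling of probe sets, moderation, array weights, an offset of 16, the replicate block and leaving out each array.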

Additional observations from a re-analysis of the deposited data

How the results depend on the processing

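Over 12 alternative settings and 6 left-out arrays, 161 of 169 recomputed changes of the 10 members kept their direction and their side of the threshold. Of 162 recomputed counts of called genes in the lists, 132 equalled the reported count, 26 differed by up to 1.5 times and 4 by more. Apart from leaving out genes under the median level, the counts ran from 5 to 6 for the members, 11 to 13 for REST targets, 7 to 8 for neuron markers, 8 to 10 for other regulators of neuronal exons and 9 to 10 for genes with mRNAs bound by Hu proteins, and were constant for the other 4 lists. ELAVL3, NOVA2, CELF5, CELF3 and NOVA1 kept their calls wherever they were tested. CELF4 was called when genes with a mean under 5 were left out (0.1529), with array weights (0.1673), with the replicate block (0.1529), without control array 3 (0.1907) and without SAHA array 1 (0.1993), and its change ran from 0.1154 to 0.1993 over the left-out arrays. RBFOX3 was called after a further quantile normalization (-0.1766). ELAVL4 ran from -0.1009 to 0.0865 over the left-out arrays. Leaving out genes under the median level, which removes members from testing, left 2 called members (ELAVL3 and NOVA2), 4 called REST targets, 5 called genes with mRNAs bound by Hu proteins and 3 called genes with NOVA-regulated exons. Genes without a call changed sign: CELF6 (-0.0727) and RBFOX2 (0.0265) after a further quantile normalization, CELF6 (-0.0036) and RBFOX2 (0.0071) with cyclic loess, and CELF2 (2e-04) when arrays were centred on their median. Over the left-out arrays ELAVL1 ran from -0.0239 to 0.0399, CELF2 from -0.0417 to 0.0545 and RBFOX2 from -0.0269 to 0.0022. The cause was not tested. Same-numbered arrays did not deviate together (correlations of -0.0304, -0.1669 and -0.0042), so the sample numbers were not taken as pairs. With the replicate block 6 members were called in place of 5, and 10601 genes in place of 11049. Signal over background was not available, so absence of a change in ELAVL2, ELAVL4 and RBFOX1 cannot be told apart from absence of the transcript. The same limit holds for CELF4 (7.18 in control, 7.33 in SAHA) and RBFOX3 (7.41 and 7.33). Both lay under the control level of SMARCB1 (7.74), a gene typically lost in this tumour.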
